A study of Xenopus laevis with 12 samples.

Results

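A set of 5 genes of *Xenopus laevis* embryos, grouped as mucins and mucus-like secreted proteins, was followed out of 42638 genes in the table of counts. They were the mucin-5AC gene LOC108715183, *muc2l.L*, the IgGFc-binding protein gene LOC108697889, the uromodulin gene LOC108709516 and *dan4l.L*. Whether each of their proteins is part of mucus was not checked. These 5 genes were chosen by their fold changes and levels in these 4 groups, which were known when the list was made, so the values given for them here are a description with no test. All 5 passed the filter on low counts (above 1.8 CPM, which is counts relative to the depth of the library, in at least 3 libraries), which kept 25553 genes. Of the 12 libraries, LOC108709516 exceeded 1.8 CPM in 4, all of them from treated embryos, so it entered the fit through the groups in which it was high.

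Mucus is a hydrated gel of very large glycoproteins, the gel-forming mucins, whose long serine- and threonine-rich stretches carry dense sugar chains and whose cysteine-rich ends link the chains into a network. In mammals MUC5AC is made by mucous cells of the airway and stomach surface and MUC2 by intestinal goblet cells, and IgGFc-binding protein is a companion of mucins in the gel. Uromodulin is a filament-forming glycoprotein with a zona pellucida domain, made in mammals by the thick ascending limb of the kidney. The skin of a *Xenopus* tadpole is itself a mucociliary epithelium, in which secretory cells coat the surface with mucus and multiciliated cells move it. The symbol *dan4l.L* and its annotation, cell wall protein DAN4-like, gave no role of which one could be sure.

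Wild-type embryos were kept in small (100 embryos) or large (300 embryos) cohorts, either untreated (control) or with 90 µM thioridazine, a phenothiazine antipsychotic that blocks dopamine receptors. Each library held ribosome-depleted RNA from 15 whole tadpoles pooled at stage 35, and 3 libraries made up each of the 4 groups: control small and control large without the drug, and thioridazine small and thioridazine large with it. Exposure began at stage 12.5. The labels give its end as stage 35 and also name stage 25. The paper ends it near stage 25 and describes the stage 35 samples as taken after a brief recovery in culture medium. On the paper's account the treated tadpoles were therefore no longer in the drug when sampled. Libraries totalled 4887343 to 7497662 expected counts. The labels do not state whether pools of a group came from different clutches or different dishes. A p-value here therefore reflects only how far pooled samples differ, and part of that may be technical. If the pools of a group shared a dish, an effect of the dish cannot be told apart from cohort size or treatment. The paper describes embryos of an experiment as from the same clutch, and elsewhere as pooled from separate mothers and divided at random. In libraries of whole embryos, fewer cells of a type and less RNA per cell cannot be told apart.

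Fold changes are log2 values ± standard error (SE) from limma, fitted to all genes and all 12 libraries. The main model here held 2 surrogate variables, which the methods of the study name and which are trends across libraries estimated from all genes. The first of them had 68.0% of its variance between treatments and was highest in thioridazine small replicate 1 (0.624) and thioridazine large replicate 2 (0.426). These were also the libraries with the least LOC108715183 and *muc2l.L* in their groups. Each fold of the 5 genes is therefore given with and without the surrogate variables, and folds of other genes are with them unless stated. Called genes are those whose p, adjusted by Benjamini-Hochberg over all genes tested, was under 0.05. RSEM divides reads that match close copies by estimation, and mucins hold repeats and have close relatives, which makes their values less certain than those of a single-copy gene. Levels are CPM on TMM-scaled totals, and are not compared between genes because no value per length was computed.

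The mucin-5AC gene LOC108715183 was highest in large untreated cohorts and lowest in both thioridazine groups. Its level was 955, 1202 and 1160 CPM in control small, 1863, 1833 and 1861 CPM in control large, 345, 601 and 657 CPM in thioridazine small, and 608, 403 and 652 CPM in thioridazine large. The groups therefore fell in the order control large, control small and then both thioridazine groups, which overlapped each other, while neither control group overlapped any other group. The group means were 1105 ± 132, 1853 ± 17.0, 534 ± 166 and 554 ± 133 CPM (SD, n = 3) in that order of listing. The mean of control large was 1.68 times that of control small, and the mean was 2.07 times lower with thioridazine in small cohorts and 3.34 times lower in large cohorts.

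The gene *muc2l.L*, a mucin by its symbol and annotated as a hypothetical protein, had the same order. Its libraries held 1929, 1931 and 2214 CPM in control small, 2883, 2739 and 3136 CPM in control large, 667, 1140 and 1494 CPM in thioridazine small, and 1053, 739 and 1013 CPM in thioridazine large. Every control library lay above every thioridazine library, and control large did not overlap control small. The means were 2025 ± 164, 2919 ± 201, 1100 ± 415 and 935 ± 171 CPM (SD, n = 3). Control large was 1.44 times control small, and thioridazine groups were lower than their controls by 1.84 times in small and 3.12 times in large cohorts. The SD of thioridazine small was the widest of the 4 groups because replicate 1 (667 CPM) and replicate 3 (1494 CPM) lay far apart.

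LOC108715183 and *muc2l.L* were the members of the 5 for which all 6 thioridazine libraries lay apart from all 6 control libraries, at 345 to 657 against 955 to 1863 CPM and at 667 to 1494 against 1929 to 3136 CPM. Of all genes tested, 4.83% separated the treatments in this way, 2.74% with the thioridazine libraries lower. Together these genes took 0.314% ± 0.0224 of all counts in control small, 0.476% ± 0.0209 in control large, 0.163% ± 0.0593 in thioridazine small and 0.150% ± 0.0299 in thioridazine large (SD, n = 3). The ratio of *muc2l.L* to LOC108715183 CPM stayed between 1.49 and 2.27 over the 12 libraries. In each library the fractions of their expected counts completed a whole number (6976.75 and 14096.25 in control small replicate 1). This is the pattern left when RSEM divides reads between 2 genes. The share of such reads was not tested.

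The IgGFc-binding protein gene LOC108697889 was highest in small untreated cohorts and similar in the other 3 groups. It was at 29.0, 35.3 and 35.0 CPM in control small, 20.3, 19.9 and 20.3 CPM in control large, 15.0, 19.4 and 20.8 CPM in thioridazine small, and 20.0, 16.5 and 20.2 CPM in thioridazine large. Control small lay above every other group, and control large overlapped both thioridazine groups. The means were 33.1 ± 3.55, 20.2 ± 0.253, 18.4 ± 3.01 and 18.9 ± 2.09 CPM (SD, n = 3), so that control small was 1.64 times control large and 1.8 times thioridazine small. In untreated embryos this gene was lower in large cohorts and the mucin genes were higher.

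The gene *dan4l.L* was highest in large untreated cohorts, as the mucin genes were, but thioridazine small did not lie below control small. Its level was 14.2, 15.7 and 17.3 CPM in control small, 41.1, 29.7 and 33.8 CPM in control large, 10.3, 25.4 and 16.2 CPM in thioridazine small, and 11.2, 8.79 and 10.4 CPM in thioridazine large. Control large lay above every other group, thioridazine large lay below both control groups, and thioridazine small overlapped control small and thioridazine large. The means were 15.7 ± 1.53, 34.9 ± 5.78, 17.3 ± 7.63 and 10.1 ± 1.22 CPM (SD, n = 3). Control large was 2.22 times control small, and thioridazine large was 3.44 times lower than control large.

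The uromodulin gene LOC108709516 had the reverse pattern, being nearly unread in controls and highest in large cohorts with thioridazine. Its counts were 2, 1 and 1 in control small, 3, 1 and 4 in control large, 12, 4 and 9 in thioridazine small, and 39, 33 and 44 in thioridazine large. On the CPM scale these were 0.274, 0.142 and 0.150 in control small, 0.399, 0.207 and 0.742 in control large, 2.29, 0.652 and 1.20 in thioridazine small, and 5.52, 5.09 and 7.64 in thioridazine large. Thioridazine large lay above every other library, thioridazine small lay above control small, and thioridazine small replicate 2 lay within the range of control large. From the summed counts of 116 and 8, thioridazine large was 13.3 times control large (exact 95% interval 6.54 to 31.6), and it was 4.54 times thioridazine small (2.93 to 7.30). From 25 counts against 4, thioridazine small was 6.94 times control small (2.40 to 27.4). From 8 against 4, control large was 2.37 times control small (0.634 to 10.7), a wide interval from few reads. These intervals cover counting error only and leave out differences between libraries. Reads from PCR without molecular identifiers are also not independent molecules. LOC108709516 was chosen with these values known, so the intervals are not tests of a difference. At these depths 3 counts correspond to 0.399 to 0.620 CPM.

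**Figure D1:**
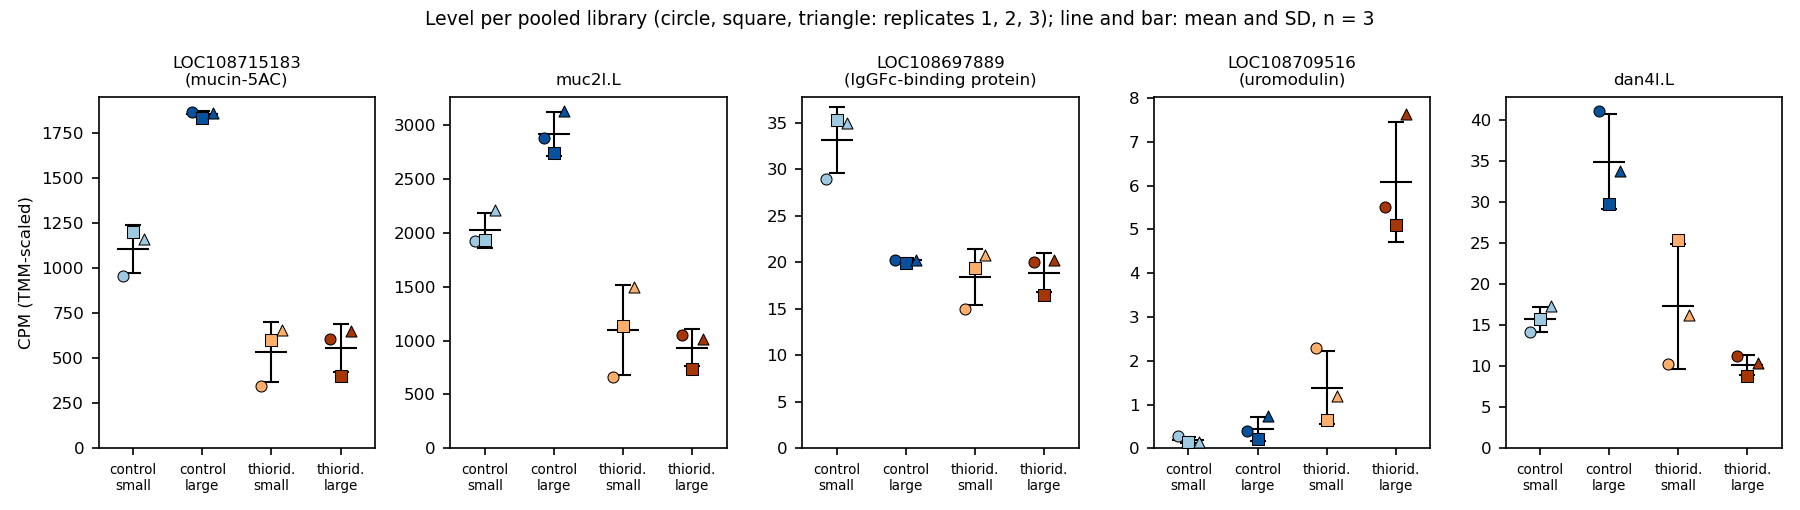
Level of each of the 5 genes in every library, in CPM on TMM-scaled totals, by group (control or thioridazine, small or large cohorts). Points are libraries with the shape giving the replicate, and the line and bar are the mean and SD (n = 3). The mucin genes and *dan4l.L* are highest in control large, LOC108697889 in control small (29.0 to 35.3 CPM) and LOC108709516 in thioridazine large (5.09 to 7.64 CPM).

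The comparison of large with small cohorts in untreated embryos sets levels at each cohort size side by side without the drug. In this contrast 4 of the 5 genes had libraries that did not overlap (background 16.0% of genes tested) and 3 were called, against a background of 0.294%, while 2 were called without surrogate variables (background 0.125%). Since fold changes and levels in all 4 groups chose the genes, nothing is read from those counts. The same holds for the counts of the 5 genes beside their backgrounds in the comparisons below. *dan4l.L* had a fold of 1.09 ± 0.20 with the surrogate variables and 1.17 ± 0.21 without them. LOC108715183 had 0.67 ± 0.07 and 0.75 ± 0.18, and *muc2l.L* 0.45 ± 0.09 and 0.53 ± 0.19. LOC108697889 was lower, at -0.73 ± 0.11 and -0.70 ± 0.13. These folds moved little with the surrogate variables, whereas the number called was 1 without control large replicate 1, 1 without replicate 2 and 0 without replicate 3. It was 4 without thioridazine small replicate 1 or 3 or thioridazine large replicate 1 or 2, and 2 without control small replicate 2 or 3 or thioridazine small replicate 2.

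Among embryos given thioridazine, the same contrast sets large against small cohorts. The uromodulin gene LOC108709516 was the 1 gene of the 5 whose libraries did not overlap (background 10.7%) and the 1 gene called with the surrogate variables (background 0.0939%) and without them (background 0.0744%), with a fold of 2.74 ± 0.43 with and 2.24 ± 0.37 without the surrogate variables. None of the 5 was called without control small replicate 1, control large replicate 3, thioridazine small replicate 2 or thioridazine large replicate 1. Without control small replicate 2 the number was 2. Without thioridazine small replicate 1 the 1 gene called was *muc2l.L* (-0.64 ± 0.10). LOC108709516 was called in 7 of the 12 fits with a library left out. The fold of LOC108709516 was as low as 1.96 in these fits, without control large replicate 3. The mucin genes overlapped between the cohort sizes. LOC108715183 had -0.29 ± 0.08 with and 0.06 ± 0.20 without the surrogate variables, and *muc2l.L* -0.55 ± 0.10 and -0.19 ± 0.20. *dan4l.L* had -1.01 ± 0.23 and -0.71 ± 0.26, with thioridazine small replicate 1 (10.3 CPM) inside the range of thioridazine large.

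Thioridazine against control in small cohorts was the contrast in which the surrogate variables mattered most. Libraries of 4 of the 5 genes did not overlap (background 21.7%), yet 0 were called with the surrogate variables (background 0.160%) and 3 were called without them (background 2.81%). LOC108715183 had a fold of -0.14 ± 0.11 with them and -1.08 ± 0.19 without, and LOC108697889 had -0.36 ± 0.17 and -0.83 ± 0.13. For *muc2l.L* the fitted change with surrogate variables was 0.00 to 2 decimals (SE 0.15), against -0.94 ± 0.20 without them. In the libraries themselves the highest thioridazine small level of LOC108715183 was 657 CPM and the lowest control small level 955 CPM. With surrogate variables, the number called was 3 without thioridazine small replicate 1, 3 without replicate 2 and 4 without replicate 3, and it was 1 and 2 without thioridazine large replicates 1 and 2. For *dan4l.L*, whose libraries overlapped, the fold was 0.85 ± 0.32 with and 0.08 ± 0.23 without the surrogate variables, and -0.24 with them when thioridazine small replicate 2 was left out.

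In large cohorts the thioridazine contrast separated the libraries of 4 of the 5 genes (background 23.7%), and 3 were called with the surrogate variables (background 0.223%) and 4 without (background 2.24%). LOC108715183 had -1.10 ± 0.10 with and -1.77 ± 0.19 without the surrogate variables, and *muc2l.L* had -1.0 ± 0.13 and -1.66 ± 0.20. *dan4l.L* had -1.24 ± 0.29 and -1.79 ± 0.24, and was called in the fit without them. LOC108709516 had a fitted fold of 3.38 ± 0.57 and 3.59 ± 0.52, a value that depends on the prior count because controls held at most 4 reads. LOC108697889 lay at 0.21 ± 0.16 and -0.10 ± 0.14, with overlapping groups. Leaving out control large replicate 3 left 0 of the 5 called, and leaving out thioridazine large replicate 3 left 1. Without thioridazine small replicate 1 the fold of LOC108715183 was -1.78 and that of *muc2l.L* -1.67, close to the fit with no surrogate variables.

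The interaction asks whether the difference between thioridazine and control levels itself differed between large and small cohorts. It was -0.96 ± 0.11 for LOC108715183, -1.0 ± 0.14 for *muc2l.L* and -2.10 ± 0.31 for *dan4l.L*, all more negative in large cohorts, and these 3 were called (background 0.0744%). Without surrogate variables the values were -0.69 ± 0.27, -0.72 ± 0.28 and -1.87 ± 0.34, and 0 of the 5 were called (background 0.0196%). For LOC108697889 it was 0.57 ± 0.16 with and 0.73 ± 0.19 without them, and for LOC108709516, with few reads in controls, 1.90 ± 0.74 and 1.28 ± 0.86. The 3 calls fell to 0 when control large replicate 3 or thioridazine small replicate 2 was left out, and to 1 when thioridazine small replicate 3 or thioridazine large replicate 1 or 2 was. Without thioridazine small replicate 3 the values of LOC108715183 and *muc2l.L* were -0.37 and -0.35. In the levels, thioridazine small and large had means of 534 and 554 CPM for LOC108715183 and of 1100 and 935 CPM for *muc2l.L*. Their control groups differed. In the fit with surrogate variables the interaction of LOC108715183 combined cohort-size folds of 0.67 in controls and -0.29 with thioridazine. For *muc2l.L* these folds were 0.45 and -0.55. The thioridazine fold of *muc2l.L* was not called, and its libraries overlapped between cohort sizes. Dropping the surrogate variables brought that fold to -0.19 ± 0.20, and leaving out single libraries moved it over -0.64 to 0.18. How far the interaction of *muc2l.L* lay in the controls was not tested.

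**Figure D2:**
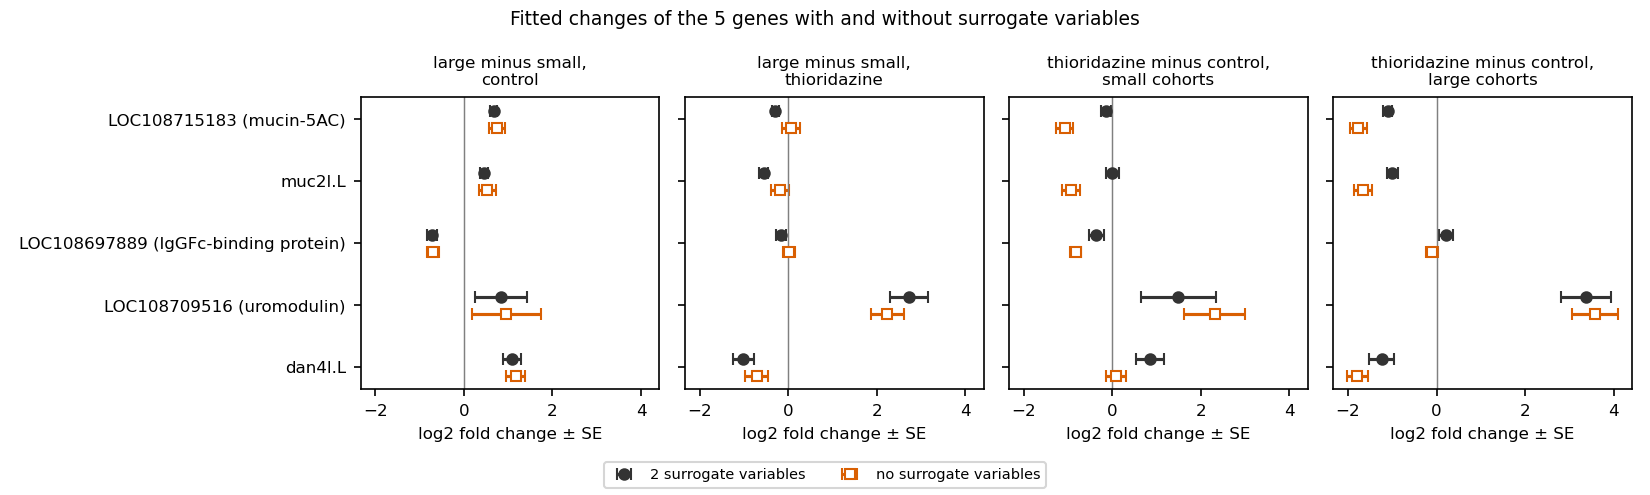
Fitted log2 fold changes ± SE of the 5 genes in 4 comparisons, with 2 surrogate variables (filled circles) and without (open squares). The fits lie close together for cohort size in controls and apart for thioridazine in small cohorts, where LOC108715183 moves from -0.14 to -1.08.

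The gene order in RefSeq (assembly Xenopus_laevis_v10.1, used for names and order only) placed 4 of the 5 genes in pairs. The genes of a pair lay near the same named gene on the long (L) and short (S) copies of a chromosome. *X. laevis* is allotetraploid, and its genes often persist as a pair of homeologs, 1 on each copy. LOC108715183 on chromosome 4S and *muc2l.L* on 4L each lay directly beside *slc5a12*, a sodium-coupled monocarboxylate carrier. LOC108709516 on 2S and *dan4l.L* on 2L each lay 2 places from *cnksr1*, a scaffold protein of Ras signalling. In the listed order the sides were opposite in each pair. *slc5a12* came after LOC108715183 and before *muc2l.L*, and *cnksr1* came before LOC108709516 and after *dan4l.L*. No other named gene among the 3 neighbours on each side was shared within a pair. An S copy named *muc2l.S* or *dan4l.S* was not analysed here. No sequences were compared, so these are places near a shared gene and not a statement that the genes are homeologs.

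Across libraries, genes at one pair of places rose and fell together, and at the other they moved in opposite directions. Over the 12 libraries, which share groups and depth, log2 CPM of LOC108715183 and *muc2l.L* had a Pearson r of 0.98 and a Spearman rho of 0.96. Their deviations from the group means had r = 0.92. Each was the most similar of 25552 other genes to the other. The part in this likeness of reads divided between LOC108715183 and *muc2l.L* was not tested. For LOC108709516 and *dan4l.L* r was -0.62, rho -0.56 and the value within groups -0.59. The thioridazine large libraries, with 8.79 to 11.2 CPM of *dan4l.L*, held the most LOC108709516, while thioridazine small replicate 1 had as little *dan4l.L* (10.3 CPM) with 2.29 CPM of LOC108709516.

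**Figure D3:**
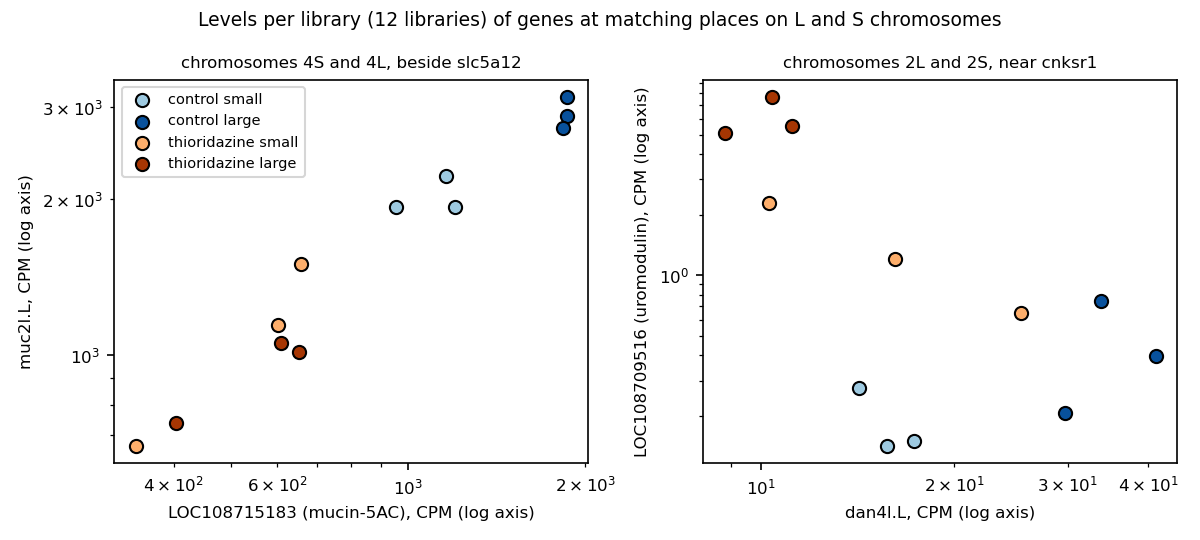
Level of *muc2l.L* against LOC108715183 (left) and of LOC108709516 against *dan4l.L* (right) in the 12 libraries, in CPM on log axes, coloured by group. The left pair rises together from thioridazine to control large (r = 0.98), and the part of divided reads in this was not tested. On the right the thioridazine large libraries have the most LOC108709516 at 8.79 to 11.2 CPM of *dan4l.L*.

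Among the other pairs of the 5, LOC108715183 and *dan4l.L* had r = 0.82 (rho 0.80, 0.72 within groups), and *muc2l.L* and *dan4l.L* 0.82 (rho 0.90, 0.65 within groups). LOC108697889 differed from the mucin genes in its order of groups, with r = 0.47 against LOC108715183 and 0.52 against *muc2l.L*. Within groups it followed them closely, at 0.97 and 0.88. In each thioridazine group, for example, the library with the least LOC108715183 (345 and 403 CPM) was also that with the least LOC108697889 (15.0 and 16.5 CPM). All these values are descriptions over 12 libraries in 4 groups.

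Beyond one another, the genes most like LOC108715183 were *crygbl.2.L*, a gamma crystallin of the lens (r = 0.962), and *dbn1.L*, the actin-binding protein drebrin (0.961). For *muc2l.L* they were the uncharacterized LOC495995 (0.963) and *rab3ip.S*, which activates Rab proteins of secretory vesicle traffic (0.960). LOC108697889 was most like the ubiquitin ligase gene *ubr3.L* (0.956), the cadherin gene *dchs1.S* (0.933) and the palmitoyltransferase gene *zdhhc9.L* (0.922). LOC108709516 was most like LOC108701262, an insulin-like growth factor-binding protein 2 gene (0.924), *vkorc1.S* of the vitamin K cycle (0.922) and the phospholipid scramblase gene *plscr1.L* (0.910). *dan4l.L* was most like *mpped2.S*, a metallophosphoesterase gene (0.919), LOC108708254, a CUB and sushi domain gene (0.917), and *acad9.S*, of mitochondrial complex I assembly (0.903). None of these 5 sets of 3 held another mucin or mucus protein gene except that the mucin genes named each other.

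Of 30 neighbours, 3 on each side of each gene, 11 were tested and 0 were called in any comparison (limma, lowest adjusted p = 0.507), while 1 was called without surrogate variables. No annotated gene overlapped any of the 5. Directly beside LOC108697889 on chromosome 7S lay XB5897453.S, another IgGFc-binding protein gene. Its means were 124 CPM in control small, 118 in control large, 65.6 in thioridazine small and 78.0 in thioridazine large. It did not share the difference of LOC108697889 between untreated cohort sizes, with a fold of -0.19 ± 0.23 (limma adjusted p = 0.865). The mucin-15 gene LOC108713850, 2 places from *muc2l.L*, had means of 12.9, 10.7, 13.1 and 12.5 CPM. *cnksr1.L* had 23.7, 25.8, 25.2 and 24.7 CPM, and *cnksr1.S* 5.89, 5.67, 6.61 and 6.69 CPM, so neither followed the gene near it.

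Other mucin and mucus protein genes were taken by symbol and description, and 52 of them were tested, 27 mucins and 25 mucus proteins. The latter included IgGFc-binding proteins, intelectins, otogelins, tectorins, anterior gradient proteins, calcium-activated chloride channel regulators and uromodulins. Membership followed names, so a place in mucus was not checked for each gene. The neighbour XB5897453.S was not in the list. Of the 52, 0 were called by limma with surrogate variables in any of the 5 comparisons. Those with an unadjusted p under 0.05 numbered 16 for cohort size in controls, 8 for cohort size with thioridazine, 7 for thioridazine in small cohorts, 13 for thioridazine in large cohorts and 14 for the interaction. These were 30.8%, 15.4%, 13.5%, 25.0% and 26.9% of the 52, against 9.41%, 7.33%, 6.10%, 8.63% and 7.59% of all genes tested. Their median folds were 0.01, 0.03, -0.19, -0.12 and -0.02 in the same order, beside 0.00 over all genes tested in each comparison. In both thioridazine contrasts more of the 52 were lower than higher with surrogate variables (33 and 37), but without them 23 and 27 were lower.

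The 3 relatives nearest the threshold all lay lower. A second mucin-5AC gene, LOC108708019, was at -1.01 ± 0.22 for large against small untreated cohorts (limma adjusted p = 0.0643; -0.93 ± 0.23 without surrogate variables), the opposite direction to LOC108715183, from a mean of 8.74 to 4.50 CPM. Next in that comparison, and in the direction of LOC108715183, were the mucin-3A gene LOC108697246 at 1.57 ± 0.41 (limma adjusted p = 0.153) and the mucin-16 gene LOC108712806 at 0.94 ± 0.29 (limma adjusted p = 0.253). In large cohorts with thioridazine the mucin-2 gene LOC108719771 was at -1.97 ± 0.41 (limma adjusted p = 0.0774), but at -0.89 ± 0.39 without surrogate variables (limma adjusted p = 0.256). The mucin-2 gene LOC108704680 was at -0.82 ± 0.18 (limma adjusted p = 0.0945). The mucin-like gene LOC108705317 was at 1.02 ± 0.28 there (limma adjusted p = 0.216) and had the smallest p of the relatives for the interaction, 1.25 ± 0.30 (limma adjusted p = 0.249), positive where those of LOC108715183, *muc2l.L* and *dan4l.L* were negative. For cohort size with thioridazine the smallest p among the 52 was also that of LOC108705317, at 0.70 ± 0.22 (limma adjusted p = 0.407). For thioridazine in small cohorts it was that of LOC108708019, at -1.12 ± 0.32 (limma adjusted p = 0.408), and at -0.66 ± 0.22 without surrogate variables.

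Of the mucus proteins, the goblet-cell channel regulator gene *clca1.1.L* was at 1.60 ± 0.50 for cohort size in controls (limma adjusted p = 0.266) and the lectin gene *itln1.L* at 0.29 ± 0.12 (limma adjusted p = 0.469). Without surrogate variables 3 of the 52 were called for thioridazine in small cohorts and 3 in large cohorts. In small cohorts these were the IgGFc-binding protein gene LOC108696889 at -0.66 (limma adjusted p = 0.00482), *itln1.L* at -0.51 (limma adjusted p = 0.0378) and the mucin-2 gene LOC108718617 at 0.81 (limma adjusted p = 0.0289). In large cohorts they were the mucin-4-like gene LOC108695967 at -1.12 (limma adjusted p = 0.0133), LOC108704680 at -0.81 (limma adjusted p = 0.00288) and LOC108711676 at -0.41 (limma adjusted p = 0.0444). The background shares of genes called in those fits were 2.81% and 2.24%.

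Of the 7 relatives with the highest mean level over all libraries, a set chosen after the values were seen, 1 had its highest group mean in control large, as LOC108715183 and *muc2l.L* did. This was *itln1.L*, at 1852 CPM against 1490 in control small, 1058 in thioridazine small and 1332 in thioridazine large. The IgGFc-binding protein gene LOC108696889, with a mean over the groups of 2634 CPM, had group means of 3234 CPM in control small, 2830 in control large, 2072 in thioridazine small and 2401 in thioridazine large. In the same order of groups the mucin-2 gene LOC108697796 had 1604, 1279, 1242 and 1137 CPM, and *otogl2.L* had 2559, 2095, 2181 and 2179 CPM. These 3 had their highest mean in control small. The mucin-4 gene LOC108716195 (497, 411, 566 and 423 CPM) and the mucin-5B gene LOC108715209 (290, 255, 337 and 309 CPM) had it in thioridazine small, and the IgGFc-binding protein gene LOC108696890 (1137, 1020, 996 and 1226 CPM) in thioridazine large. Outside these 7, some relatives also had their highest mean in control large, and others did not. Of those that did, picked after their values were seen, LOC108704680 had 40.7, 53.5, 36.2 and 30.7 CPM. LOC108695967 had 41.9, 58.3, 27.2 and 26.6 CPM. Neither was called for cohort size in controls. Another uromodulin gene, LOC108709511, also chosen after its values were seen, lay at 7.82 to 11.4 CPM in control small, 8.88 to 12.4 in control large, 4.39 to 7.99 in thioridazine small and 7.85 to 8.51 in thioridazine large. In large cohorts its thioridazine libraries were all below its control libraries, whereas those of LOC108709516 were all above theirs. Of all genes tested, 23.7% separated in that contrast in either direction. The fold of LOC108709511 there was -0.14 ± 0.29 with surrogate variables (limma adjusted p = 0.94) and -0.41 ± 0.20 without (limma adjusted p = 0.318). An opposite response of LOC108709511 is therefore not shown by the fit.

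**Figure D4:**
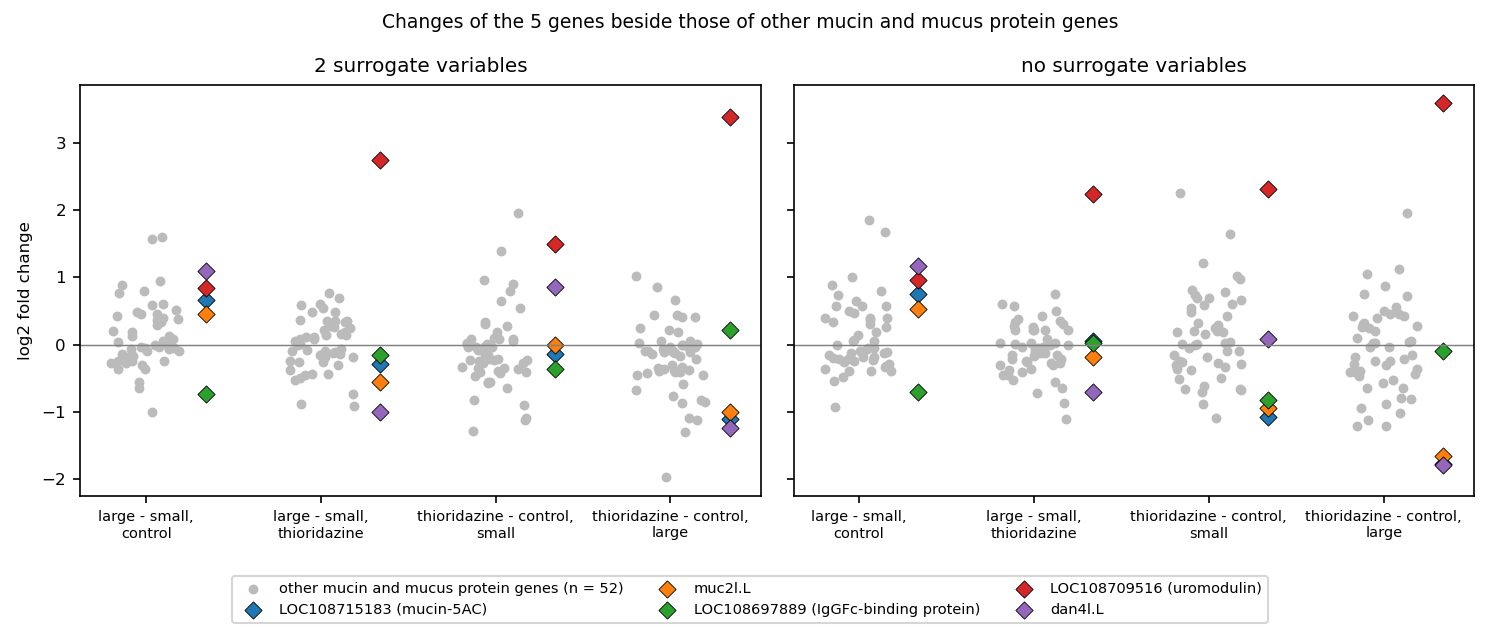
Log2 fold changes of the 5 genes (diamonds) beside those of 52 other mucin and mucus protein genes (grey points) in 4 comparisons, with 2 surrogate variables (left) and without (right). The 52 scatter around 0 in each comparison, and LOC108709516 lies above them for thioridazine in large cohorts.

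Summed over the 52 relatives, the level was 11285 to 11602 CPM in control small, 10321 to 10701 CPM in control large, 7510 to 10633 CPM in thioridazine small and 9395 to 10079 CPM in thioridazine large. The sum was thus lower in control large than in control small, whereas LOC108715183 and *muc2l.L* were higher in control large. The most abundant relatives weigh most in this sum. Of 47 genes for mucin glycosylation, which attach and extend the sugar chains, 0 were called in any comparison with the surrogate variables. Without them 1 was called higher in each thioridazine contrast. The summed level of the 47 genes stayed between 792 and 874 CPM over all libraries. Of 27 genes of the secretory cell programme, regulators of goblet and other secretory cells, 0 were called with the surrogate variables (3 of them, *agr2.L*, *agr2.S* and *agr3.L*, are also among the 52). Without surrogate variables 2 were called higher with thioridazine in small cohorts, and 1 higher and 1 lower in large cohorts. The sum over the 27 genes was 729 to 753 CPM in control small, 768 to 777 in control large, 813 to 868 in thioridazine small and 801 to 854 in thioridazine large. It was thus higher in every thioridazine library than in any control library, whereas LOC108715183 and *muc2l.L* were lower with thioridazine.

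Markers of cells that could supply these proteins were read beside them. Of 26 larval epidermis genes 0 were called with surrogate variables. Without them 3 were called with thioridazine in small cohorts (1 higher, 2 lower) and 2 were called higher in large cohorts. The epidermis sum was 7726 to 7883 CPM in control small, 7410 to 8770 in control large, 5954 to 7801 in thioridazine small and 7234 to 8227 in thioridazine large. The lower level of LOC108715183 and *muc2l.L* with thioridazine thus stood beside epidermis sums that overlapped in both cohort sizes. In small cohorts the sum with thioridazine reached down to 5954 CPM. Markers of small secretory cells (6 genes) and of multiciliated cells (26 genes), of the cement gland (15 genes), a mucus-secreting organ of the head, and of the kidney (22 genes) had 0 called in every comparison, with or without surrogate variables. The sum over the small secretory cell markers was 74.3 to 90.0 CPM in control small and 101 to 107 in control large, apart in the same direction as LOC108715183 and *muc2l.L*, and 95.2 to 102 in thioridazine small and 98.0 to 108 in thioridazine large, where those genes were lowest. The cement gland sum was 480 to 484 CPM in control large and 518 to 525 in thioridazine large, with 454 to 515 and 494 to 509 in the small cohorts. Multiciliated cell markers summed to 416 to 460 CPM in control small, 398 to 413 in control large, 368 to 502 in thioridazine small and 439 to 528 in thioridazine large. The kidney sum was 387 to 431 CPM in control small, 364 to 379 in control large, 408 to 470 in thioridazine small and 395 to 452 in thioridazine large. It overlapped between the thioridazine groups, in which LOC108709516 differed by 4.54 times. In large cohorts it was higher with thioridazine without overlap, in the direction of LOC108709516, and in small cohorts the treatments overlapped. Of 29 gut genes 1 was called, the liver and gut regulator *hnf4a.S*, higher in large than small cohorts with thioridazine (0.76 ± 0.11, limma adjusted p = 0.0124). Without surrogate variables 1 gut gene was called in that comparison and 1 was called lower with thioridazine in small cohorts. The gut sum was 894 to 1027 CPM in control small, 1070 to 1233 in control large, 941 to 997 in thioridazine small and 1011 to 1121 in thioridazine large, so it too was higher in large than in small untreated cohorts. The part of these cell types in the levels of the 5 genes was not tested.

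Markers of ionocytes and of the hatching gland held genes called lower in thioridazine large, the group in which LOC108709516 was highest and *dan4l.L* lowest. Of 26 ionocyte genes, 2 fell with thioridazine in large cohorts, the carbonic anhydrase gene *ca2.L* (-0.63 ± 0.11, limma adjusted p = 0.0197) and the anion exchanger gene *slc26a4.3.S* (-1.51 ± 0.27, limma adjusted p = 0.0290). Without surrogate variables 4 fell there, 1 fell with thioridazine in small cohorts and 1 in large against small cohorts with thioridazine. The ionocyte sum was 348 to 458 CPM in thioridazine large, 560 to 634 in thioridazine small, 562 to 609 in control small and 559 to 565 in control large, and none of the 26 was at 0 in all libraries of a group. Of 14 hatching gland genes, mostly astacin proteases that digest the egg envelope, 7 fell in large against small cohorts with thioridazine, 7 fell with thioridazine in large cohorts and 6 had a negative interaction, out of 19, 26 and 17 genes called lower among all tested. Without surrogate variables these were 4, 9 and 2 of the 14, out of 16, 336 and 5. In the fit with surrogate variables, 4, 3 and 4 of the 14 had folds above 0 in these comparisons, so the fall was not shared by all 14. The smallest limma adjusted p was 0.0075 in the first of these, shared by LOC108699319 and *astl3b.1.L*, 0.00271 for *astl2d.2.L* in the second and 0.0108 for LOC108699319 in the third. LOC108699319 and *astl3b.1.L* were at 0 in all 3 thioridazine large libraries, and none of the 14 was at 0 throughout another group. The hatching gland sum was 214 to 264 CPM in thioridazine large, 308 to 407 in thioridazine small, 371 to 451 in control small and 376 to 454 in control large. The part of these cell types in the levels of LOC108709516 and *dan4l.L* was not tested.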

How the data were processed

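Wild-type *X. laevis* embryos were sampled at stage 35 in 12 libraries, 3 for each combination of treatment and cohort size, grouped by the labels. The authors prepared stranded total RNA libraries and sequenced single-end reads. The submitters' notes and the methods of the study name fastp for trimming, Bowtie2 for ribosomal reads, STAR in 2 passes for alignment and RSEM for quantification, with versions, genome build and strand setting not given in the sources used here. Files that the authors deposited were RSEM expected counts (estimated counts, unscaled) of 42638 genes, 32.6% of whose values were not whole, and log2 CPM of 26050 genes. Recomputing the deposited log2 values from the counts gave a largest difference of 4.97e-14.

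The filter, above 1.8 CPM in 3 or more libraries, left 25553 genes. TMM factors came from edgeR 4.0.16, and limma 3.58.1 (R 4.3.3) fitted voom-weighted values with 4 groups and 2 surrogate variables from sva 3.50.0. The study's methods name these steps, but do not state that the surrogate variables entered its limma fit. The batch term of those methods is absent from the labels and was not modelled. Adjusted p-values are two-sided Benjamini-Hochberg values over all genes tested. As alternatives, DESeq2 1.42.0 and edgeR's quasi-likelihood test were run on expected counts rounded to whole numbers. Other alternatives were 0, 1 or 3 surrogate variables, a replicate block, RLE or total scaling, other filters, the deposited log2 CPM table, the 6 libraries compared, and each library left out in turn, the group of 2 then being assumed to vary like the others. Intervals of count ratios are exact binomial. The limma fit with 2 surrogate variables was also run on simulated counts with known changes placed in thioridazine large. Those counts held no trend shared by the libraries of a treatment. How the surrogate variables act on such a trend, and the other fits, were therefore not tested by simulation. No 2 libraries of a group agreed within sampling noise (chi-square per degree of freedom 2.33 to 5.39 over 12 pairs).

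The 5 genes and the gene lists were chosen with earlier results of these data known. The rule for genes named besides the 5 took any homeolog (none was analysed) and 3 neighbours on each side, the 3 mucin and 3 mucus protein genes with the smallest p per comparison (of which those nearest the threshold are given), the 2 genes with the smallest p of a list in which a gene was called, and the 3 genes most correlated with each of the 5. After the counts were opened, transferases were taken out of the mucin list and DNA helicases out of the hatching gland list by name. RefSeq (Xenopus_laevis_v10.1) matched 94.0% of identifiers and was used for names, chromosome and order. Protein and promoter features were not analysed here.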

Additional observations from a re-analysis of the deposited data

Results flagged for a closer look

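The interaction of thioridazine and cohort size was called for 3 of the 5 genes in the limma fit with 2 surrogate variables (background 0.0744%). It was -0.96 for LOC108715183, -1.0 for *muc2l.L* and -2.10 for *dan4l.L*, each more negative in large cohorts (3 libraries per group). None of the 3 was called without surrogate variables, at -0.69, -0.72 and -1.87 (background 0.0196%). With surrogate variables, none of the 3 was called when control large replicate 3 or thioridazine small replicate 2 was left out. These genes were listed with such values known, so the terms are a description.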

How the results depend on the processing

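The direction of none of the called folds of the 5 genes reversed under the alternatives. Of 313 fold values under alternatives other than leaving out a library, 86 moved by more than the replicate SD, 69 of them in the 6 alternatives without surrogate variables, as did 68 of 300 with a library left out. The counts of calls moved more. The share of all genes called also changed with the fit. For thioridazine in small cohorts it was 0.16% with 2 surrogate variables and 2.81% without. Shares under the other alternatives are not given here, so the counts below are not read as particular to these genes. For the 5 genes, with 3 called for cohort size in controls, 0 were called with the replicate block (fitted without surrogate variables) and 0 with edgeR. For cohort size with thioridazine the 1 call became 0 with 1 surrogate variable, the filter of 1 count, the deposited log2 CPM, the 6 compared libraries, or no surrogate variables with thioridazine small replicate 1 and thioridazine large replicate 2 left out (chosen after seeing the data), where LOC108709516 was below the filter and not tested. For thioridazine in small cohorts the 0 calls became 3 without surrogate variables, 4 with 3 of them, 3 with the block, 4 with edgeR, 4 with DESeq2, 2 in the 6 libraries and 3 with those 2 libraries left out. For thioridazine in large cohorts 3 became 1 with the filter of 5 CPM, and for the interaction 3 became 0 without surrogate variables, with the block or with the 2 libraries left out, and 1 with 3 surrogate variables, edgeR, DESeq2 or the filter of 5 CPM. With each library left out the calls ranged over 0 to 4, 0 to 2, 0 to 4, 0 to 4 and 0 to 3 in the 5 comparisons.

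Of the 52 relatives, with 0 called throughout, 1 was called for cohort size in controls in the 6 libraries and 1 for the interaction with the filter of 5 CPM. For thioridazine in small cohorts 3 were called without surrogate variables, 6 with 3 of them, 3 with the replicate block, 3 with edgeR, 4 with DESeq2, 1 in the 6 libraries and 2 with the 2 libraries left out. In large cohorts the numbers were 3, 8, 4, 4, 4, 5 and 2 in the same order, and 1 each with the filter of 1 count and the deposited log2 CPM. Without surrogate variables 2.81% of all genes tested were called for thioridazine in small cohorts and 2.24% in large cohorts. Shares under the other alternatives are not given here, so a rise in calls is not read as particular to the 52. With each library left out they ranged over 0 to 2, 0 to 2, 0 to 10, 0 to 10 and 0 to 1, the 10 being without thioridazine small replicate 3 (small cohorts) and without thioridazine small replicate 1 (large cohorts). Deviations of libraries with the same replicate number correlated between -0.148 and 0.102, and those with other numbers between -0.127 and 0.167. The ranges overlap, so replicate numbers were not seen to pair the libraries. Pairing by clutch cannot be decided in this way, because the labels do not state the clutches. DESeq2 gave no adjusted p for LOC108709516 for cohort size in controls, and its low counts limit what can be said of it in controls. The planned comparison of protein features was not run.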
